A study of Mus musculus with 6 samples.

Results

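Retinoic acid is made from vitamin A inside cells in a pair of oxidations and acts by binding nuclear receptors. The 9 genes described here cover that route: Rdh10, which oxidises retinol to retinal, Aldh1a1, Aldh1a2 and Aldh1a3, which oxidise retinal to retinoic acid, Crabp1 and Crabp2, which bind retinoic acid in the cytosol, and the retinoic acid receptors Rara, Rarb and Rarg. They were chosen by symbol, all 9 were found among the 24197 genes of the count table, and 7 had enough counts to be tested. The libraries were polyadenylated RNA of stromal-vascular cells, the non-adipocyte fraction of fat that holds adipocyte progenitors, from the inguinal depot of C57BL/6 mice. A Prdm16 retrovirus had been given to the cells of 3 libraries, and a control retrovirus (puro) to those of the other 3, and all were kept in standard growth medium. Prdm16 is a zinc-finger protein that promotes the brown and beige fat programme, and the comparison addresses what its forced expression does to such cells. The labels do not say whether replicates were separate cultures or animals, so the spread behind each p-value is that of these libraries and could be technical.

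In adipose tissue retinoids are taken up, stored and converted, and Aldh1a1 is the retinaldehyde dehydrogenase best known from fat, where it has been studied for its part in white and beige adipocytes. Bound to retinoic acid, a receptor pairs with a retinoid X receptor (RXR) and sits on DNA at direct repeats of a short half-site, of which a spacing of 5 bases is the classical arrangement. Rarb is the textbook target of its own family, because its promoter carries such a repeat. Cyp26 enzymes break retinoic acid down again and are also well-known targets of the receptors.

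Promoter sequence from RefSeq (GRCm38.p6) was at hand for 6 of the 9 genes, in 11 windows of 250 bases before to 50 bases after an annotated start. The stretches below are the last 150 bases before a start and are shown for the gene with the receptor repeat and for the pair of dehydrogenases that moved in opposite directions. Rarb lies at chr14:16575477-16575626 on the minus strand, and its capitals mark the half-site cores of the repeat. Aldh1a1 lies at chr19:20601818-20601967 and Aldh1a2 at chr9:71215639-71215788, both on the plus strand, and their capitals mark a CCAAT box and the octamer ATGCAAAT.
Rarb: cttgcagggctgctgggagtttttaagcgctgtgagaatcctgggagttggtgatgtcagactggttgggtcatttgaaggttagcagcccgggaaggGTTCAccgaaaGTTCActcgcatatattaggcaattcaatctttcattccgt
Aldh1a1: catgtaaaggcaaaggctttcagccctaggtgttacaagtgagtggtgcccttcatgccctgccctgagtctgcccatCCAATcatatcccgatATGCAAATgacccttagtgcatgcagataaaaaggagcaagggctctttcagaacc
Aldh1a2: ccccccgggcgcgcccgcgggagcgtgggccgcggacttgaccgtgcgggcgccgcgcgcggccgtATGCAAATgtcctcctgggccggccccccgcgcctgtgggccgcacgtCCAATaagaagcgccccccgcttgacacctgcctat

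The repeat was searched on both strands as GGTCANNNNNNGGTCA, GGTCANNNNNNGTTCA, GTTCANNNNNNGGTCA and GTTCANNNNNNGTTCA. A match was found in 0.247% of the 32851 promoter windows of all genes, and among the windows of the 6 genes it was found in that of Rarb alone, from base -52 to base -37 before the start. The octamer stood in 1.74% of all windows, among them 1 window each of Aldh1a1 (bases -56 to -49) and Aldh1a2 (bases -84 to -77), which also shared a CCAAT box, a motif present in 37.4% of all windows. The motifs were chosen after the sequences were read, so the shares of all windows do not measure how unusual these matches are. These letters are a description of the windows, and the counts do not say from which start a transcript came.

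The libraries held 28169059 to 35798201 counts. Prdm16, the delivered gene, had 98437, 72525 and 89054 counts in Prdm16 libraries, against 14, 22 and 25 in puro libraries, as the labels state. Levels are given in CPM, counts relative to the size of the library, with sizes adjusted by TMM, which assumes that most genes do not change. Most genes were called as changed here, in near-equal shares higher and lower, as given below. A count of 0 allows up to 3 counts, which equalled 0.0852 to 0.104 CPM depending on the library. Differences were tested with edgeR's quasi-likelihood test over 13805 genes. At a Benjamini-Hochberg adjusted p of 0.05, 37.5% of them were higher and 38% were lower in Prdm16 libraries, 75.6% in either direction, and the groups did not overlap for 77.6%. Of the 7 tested retinoid genes 5 rose and 2 fell, and with 75.6% of all genes called a call alone does not set them apart. In bulk RNA a change in the share of cells of a type and a change in RNA per cell cannot be told apart. Of 7 tested markers of adipose stroma and progenitors 5 fell, 1 rose and 1 did not pass. The list summed to 3266 to 3554 CPM in Prdm16 libraries and 7626 to 8281 CPM in puro libraries, most of it Col3a1. Among those that fell were the collagen gene Col3a1 (1880 ± 94.0 CPM in Prdm16 libraries and 5007 ± 99.9 CPM in puro libraries; SD, n = 3 each), Col1a1 (log2 fold change -3.55 ± 0.13) and Cd34 (-4.10 ± 0.13), while Ly6a rose (1.39 ± 0.04) and Pdgfra did not pass (188 ± 6.64 CPM in Prdm16 libraries and 199 ± 9.57 CPM in puro libraries; SD, n = 3 each). Col1a1 had a mean of 145 CPM in Prdm16 libraries and 1705 CPM in puro libraries, and Ly6a 988 CPM and 376 CPM. Dcn also fell (-0.25 ± 0.09), but its call was lost with the median of its chromosome removed. It was also lost without any 1 of the Prdm16 libraries, puro replicate 1 or puro replicate 2. The 8 endothelial markers summed to 9.37 to 12.2 CPM in Prdm16 libraries and 3.32 to 3.78 CPM in puro libraries. Of these, Tek rose (3.08 ± 0.15), Vwf fell (-2.57 ± 0.22) and Kdr did not pass (-0.13 ± 0.30). The other 5 were too low to test, Cdh5 and Cldn5 with no count in any library. Vwf had 11, 9 and 9 counts in Prdm16 libraries and passed the filter on low counts through its puro libraries alone. The 7 macrophage markers summed to 4.66 to 4.97 CPM in Prdm16 libraries and 3.64 to 4.82 CPM in puro libraries. Only Cd68 among them could be tested, and it did not pass (log2 fold change 0.26 ± 0.11). Ptprc, which marks all leukocytes, had 7 counts over the Prdm16 group and 0 over the puro group. Csf1r went the other way, with 9 counts over the Prdm16 group and 31 over the puro group. The part of these cell types in the retinoid genes was not tested.

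The fold changes of whole chromosomes also differed, which touches several of these genes. The median log2 fold change of tested genes was 0.49 on chromosome 14, which holds Rarb, 0.39 on chromosome 19, which holds Aldh1a1, and -0.38 on chromosome 15, which holds Rarg. On the chromosomes of the other tested members (9, 1, 3 and 11) it lay between -0.20 and 0.02. Of the tested genes of chromosome 14, 74.9% were higher in Prdm16 libraries, of those of chromosome 19, 69.0% were higher, and of those of chromosome 15, 67.0% were lower. The fold change of each of the 9 genes is therefore also given with the median of its chromosome removed where that moved it by more than its SE.

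**Figure D1:**
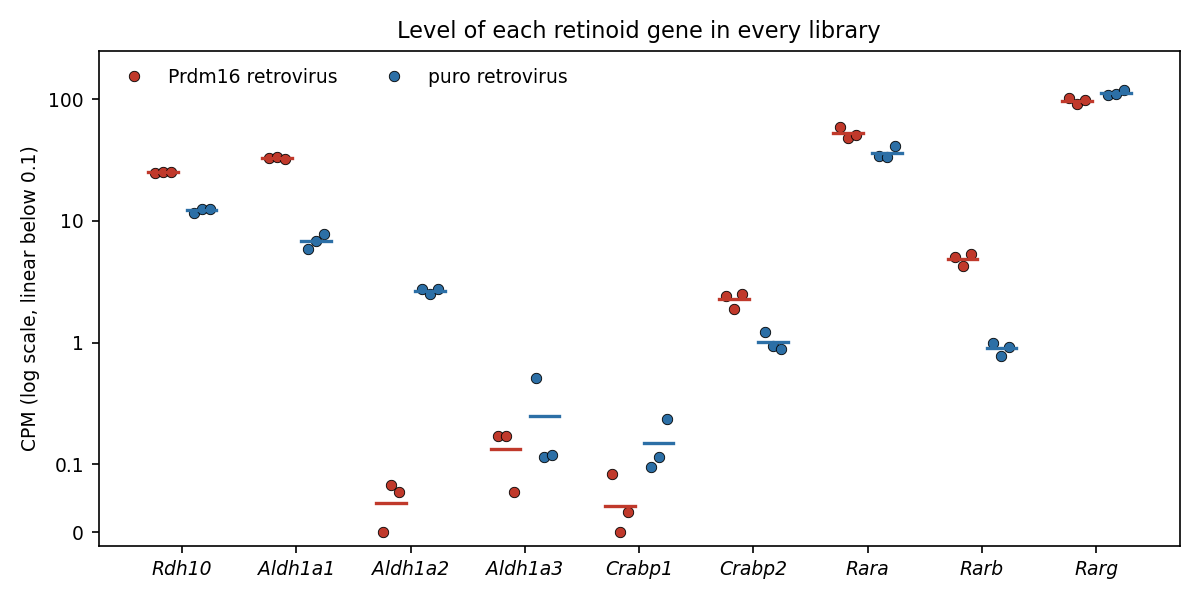
CPM of the 9 genes in each of the 6 libraries (points) with the mean of each group (line), on a log axis that is linear below 0.1 CPM; red is the Prdm16 retrovirus and blue the puro retrovirus. The groups are apart for Rdh10, Aldh1a1, Aldh1a2, Crabp2, Rara, Rarb and Rarg, as for 77.6% of all tested genes. Crabp1, which was not tested, is also apart, but only narrowly and at 0.238 CPM or less. Aldh1a3 overlaps, with puro replicate 1 at 0.516 CPM. Its other libraries and those of Crabp1 are low, near the 3-count limit of 0.0852 to 0.104 CPM.

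At the start of the route, Rdh10 roughly doubled. This membrane-bound retinol dehydrogenase supplies the retinal that the Aldh1a enzymes use, and its loss in mouse embryos depletes retinoic acid. It had 24.7, 25.0 and 25.4 CPM in Prdm16 libraries, against 11.7, 12.5 and 12.5 CPM in puro libraries. The lowest Prdm16 library lay well above the highest puro library. The log2 fold change was 1.03 ± 0.06 (SE; edgeR adjusted p = 2.39e-08), a 2.04-fold difference, and the gene's chromosome, 1, had a median near 0.

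Of the enzymes of the second oxidation Aldh1a1 rose, Aldh1a2 fell and Aldh1a3 was too low to be tested. Aldh1a1 had 32.9, 33.7 and 32.2 CPM in Prdm16 libraries, against 5.90, 6.91 and 7.87 CPM in puro libraries. All Prdm16 libraries were within a narrow band, and the puro libraries, more spread for their level, were all far below it. The gene rose by 2.25 ± 0.08 on the log2 scale, 4.77-fold (edgeR adjusted p = 8.74e-10), and by 1.86 ± 0.08 with the median of chromosome 19 removed (adjusted p = 4.57e-09). Of all tested genes, 96.0% had a lower fold change.

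Aldh1a2, the main retinaldehyde dehydrogenase of the mouse embryo, was nearly lost. Its counts were 0, 2 and 2 in Prdm16 libraries, against 86, 88 and 92 in puro libraries. Every Prdm16 library was at or under the 3-count limit, and the puro libraries lay at 2.52 to 2.77 CPM. The group sums of 4 and 266 counts put the gene 65.2-fold lower in Prdm16 libraries, with an exact 95% counting interval of 25.2 to 241, which covers counting error only. The fitted log2 fold change was -5.90 ± 0.35 (SE; edgeR adjusted p = 3.80e-08), lower than that of all but 0.471% of the tested genes, and -5.29 without Prdm16 replicate 1, the library with no count. The gene passed the filter on low counts through its puro libraries alone.

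Outside the embryo Aldh1a2 is known from mesothelium, the lining of body cavities, so the markers of that tissue are given beside it. Of 6 markers found, 2 rose, 1 fell and 3 were too low to test, and their summed level was 96.4 to 102 CPM in Prdm16 libraries and 7.18 to 7.58 CPM in puro libraries. That sum is mostly Msln, which encodes the surface protein mesothelin, at 91.2 ± 3.10 CPM in Prdm16 libraries and 6.30 ± 0.266 CPM in puro libraries (SD, n = 3 each). Krt19, the other marker that rose, had 706 counts over the Prdm16 group and 10 over the puro group. Wt1, a transcription factor known from mesothelium among other tissues, went the other way, with 1 count over the Prdm16 group and 75 over the puro group. Krt19 passed the filter on low counts through its Prdm16 libraries alone, and Wt1 through its puro libraries alone. Upk1b had no count and Lrrn4 at most 3 in any library. What part such cells or such a programme have in the level of Aldh1a2 was not tested.

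Aldh1a3, the remaining enzyme, is known from mammary and other epithelia. It had 6, 5 and 2 counts in Prdm16 libraries, against 16, 4 and 4 in puro libraries. The groups overlapped, with puro replicate 1 above all others. The ratio of the group levels, Prdm16 over puro, was 0.552 with an exact 95% counting interval of 0.258 to 1.13, so no difference was detectable at this depth. Markers of mammary epithelium had a summed level of 21.04 to 22.78 CPM in Prdm16 libraries and 0.287 to 0.358 CPM in puro libraries, from Krt18, Cdh1 and Epcam, which rose, while Krt8, Krt14, Krt5 and Elf5 had at most 3 counts in any library. Krt18, Cdh1 and Epcam passed the filter on low counts through their Prdm16 libraries alone. The part of these epithelial markers in the retinoid genes was not tested.

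Per kilobase of annotated exon, the scale on which levels of different genes can be set side by side, the 3 enzymes together gave 6.71, 6.89 and 6.57 CPM per kb in Prdm16 libraries, against 2.53, 2.54 and 2.83 CPM per kb in puro libraries. The Prdm16 libraries were thus all higher in total. Aldh1a1 made up 99.0% to 99.4% of that sum in Prdm16 libraries and 47.2% to 56.3% in puro libraries. Aldh1a2 made up 0% to 0.443% in Prdm16 libraries and 42.8% to 48.4% in puro libraries. With coding length in place of exon length the mean share of Aldh1a1 was 99.5% in Prdm16 libraries and 70.8% in puro libraries, and that of Aldh1a2 was 0.125% and 26.8%, so the size of the puro shares depends on the length used.

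**Figure D2:**
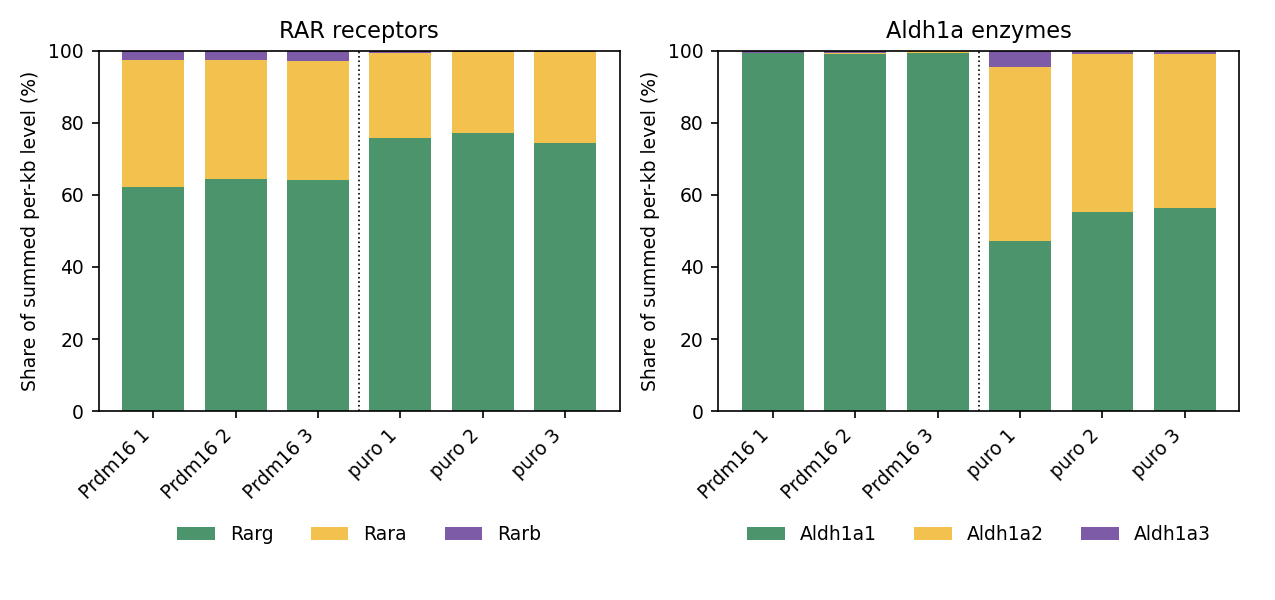
Share of each gene in the summed level per kb of exon (percent) of the 3 RAR genes (left) and the 3 Aldh1a genes (right), one bar per library, Prdm16 libraries left of the dotted line and puro libraries right of it. Aldh1a1 takes 99.0% to 99.4% of the Aldh1a sum in Prdm16 libraries and 47.2% to 56.3% in puro libraries, and Rarg takes 62.3% to 64.3% of the RAR sum in Prdm16 libraries and 74.5% to 77.1% in puro libraries.

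Of the binding proteins, Crabp2 rose and Crabp1 was barely detected. Crabp2 is known for handing retinoic acid to the receptors in the nucleus. It had 86, 55 and 84 counts in Prdm16 libraries (2.44, 1.90 and 2.52 CPM), against 38, 33 and 30 in puro libraries (1.23, 0.946 and 0.894 CPM). The groups did not overlap, though the lowest Prdm16 library was nearer to the puro libraries than the others. The gene rose by 1.18 ± 0.18 on the log2 scale (edgeR adjusted p = 0.000133), and by 1.37 ± 0.18 with the median of its chromosome, 3, removed. Crabp1, which is linked to retinoic acid breakdown, had 3, 0 and 1 counts in Prdm16 libraries, against 3, 4 and 8 in puro libraries. It was not tested with the usual filter, the ratio of group levels was 0.272, Prdm16 over puro, with an exact 95% counting interval of 0.0657 to 0.853, and without a filter on low counts edgeR gave it an adjusted p of 0.0752.

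The 3 receptors stood at different levels, in the same order in both groups. Rarg was the most abundant, at 22.7 ± 1.23 CPM per kb in Prdm16 libraries and 26.4 ± 1.35 CPM per kb in puro libraries. Rara followed at 12.1 ± 1.25 CPM per kb in Prdm16 libraries and 8.28 ± 0.962 CPM per kb in puro libraries, and Rarb was lowest at 0.927 ± 0.102 CPM per kb in Prdm16 libraries and 0.171 ± 0.0218 CPM per kb in puro libraries (SD, n = 3 each). Coding length gave the same order of the receptors. Their sum was 38.3, 33.3 and 35.7 CPM per kb in Prdm16 libraries, against 33.3, 33.9 and 37.5 CPM per kb in puro libraries, and these ranges overlapped.

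Rarb had the largest fitted rise of the 9 genes, but that of Aldh1a1 (2.25 ± 0.08 on the log2 scale) lay close to it, so their order is not settled. It had 177, 124 and 178 counts in Prdm16 libraries (5.03, 4.28 and 5.33 CPM), against 31, 27 and 31 in puro libraries (1.0, 0.774 and 0.924 CPM). Each Prdm16 library was more than 4 times the highest puro library. The gene rose by 2.45 ± 0.15 on the log2 scale, 5.45-fold (edgeR adjusted p = 7.35e-08), and by 1.96 ± 0.16 with the median of chromosome 14 removed (adjusted p = 6.20e-07). Its share of the receptor sum was 2.44% to 2.84% in Prdm16 libraries and 0.434% to 0.570% in puro libraries.

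The count of Rarb carries a limit of annotation. In GENCODE M21 its exons share 1793 bases with those of Top2b, a topoisomerase gene on the opposite strand, whereas in RefSeq the genes lie 51 bases apart, and neither the annotation nor the strand setting of the counting is given in the sources used here. Top2b was far more abundant and rose less, with 260 ± 9.60 CPM in Prdm16 libraries and 165 ± 7.35 CPM in puro libraries (SD, n = 3 each; log2 fold change 0.65 ± 0.04, edgeR adjusted p = 9.48e-08). Whether reads of Top2b entered the count of Rarb was not tested.

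Rara, the receptor expressed in most tissues, had 58.9, 48.3 and 51.2 CPM in Prdm16 libraries, against 34.3, 33.3 and 41.0 CPM in puro libraries. The groups did not overlap, and Prdm16 replicate 1 and puro replicate 3 were the highest of their groups. It rose by 0.55 ± 0.09 on the log2 scale (edgeR adjusted p = 0.000158). Rarg, which is known from skin and cartilage, had 102, 91.3 and 97.6 CPM in Prdm16 libraries, against 108, 111 and 119 CPM in puro libraries. The groups came close without overlapping. Its log2 fold change was -0.22 ± 0.05 (SE; edgeR adjusted p = 0.00264), and it was 0.16 ± 0.05 (adjusted p = 0.0140) with the median of chromosome 15 removed, so its direction depends on that choice. As a share of the receptor sum per kb, Rarg held 62.3% to 64.3% in Prdm16 libraries and 74.5% to 77.1% in puro libraries, and Rara 32.9% to 35.2% in Prdm16 libraries and 22.5% to 25.0% in puro libraries.

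**Figure D3:**
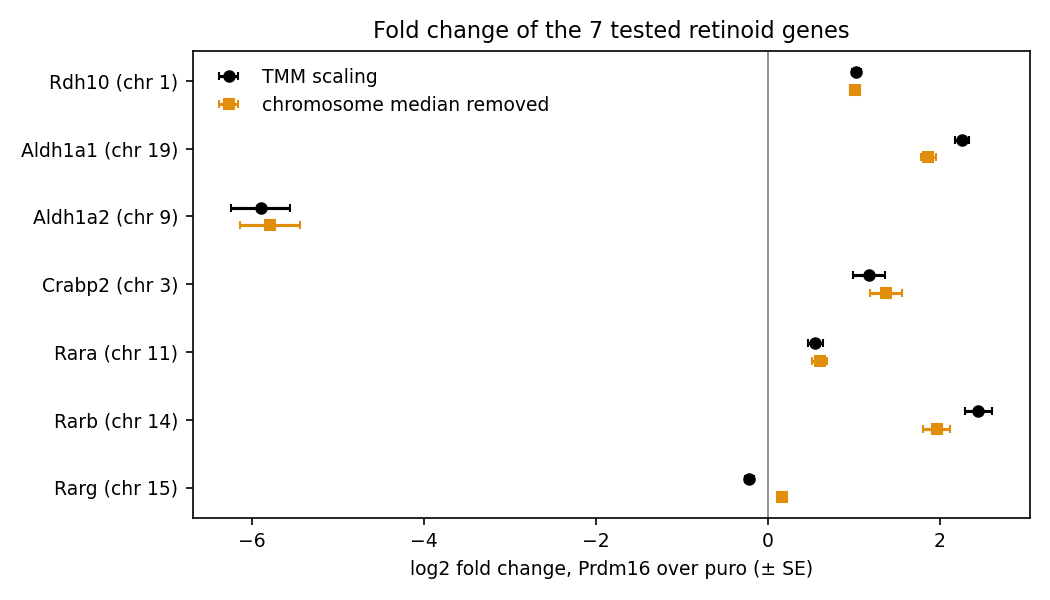
Log2 fold change, Prdm16 over puro, with its SE for the 7 tested genes, from edgeR with TMM scaling (black circles) and with the median of the gene's chromosome removed (orange squares). Rdh10, Aldh1a1, Crabp2, Rara and Rarb are above 0 and Aldh1a2 is below 0 in both, while Rarg is at -0.22 in the first and 0.16 in the second.

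Ordered by level per kb in Prdm16 libraries, Rarg and Rara were followed by Aldh1a1 (6.67 ± 0.147 CPM per kb), Rdh10 (6.01 ± 0.0829), Crabp2 (1.73 ± 0.255) and Rarb, with Crabp1, Aldh1a3 and Aldh1a2 at most 0.0479 CPM per kb. In puro libraries Rarg and Rara were followed by Rdh10 (2.95 ± 0.115 CPM per kb), Aldh1a1 (1.40 ± 0.199), Aldh1a2 (1.18 ± 0.0603) and Crabp2 (0.773 ± 0.135; SD, n = 3 throughout), with Crabp1, Rarb and Aldh1a3 at most 0.187. In puro libraries Aldh1a1 and Aldh1a2 lay about 1 SD apart, and Crabp1 and Rarb less than 1 SD apart. Coding length exchanged Aldh1a1 and Rdh10 in Prdm16 libraries, and Aldh1a2 and Crabp2 as well as Crabp1 and Rarb in puro libraries, so these neighbours have no settled order.

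The tested genes whose centred log2 CPM lay nearest to that of Rarb over the 6 libraries were Dmbx1, Sema4d and Cacna1g, with a root mean square difference of 0.0782, 0.0910 and 0.104. Nearest to Aldh1a2 were Klra15, Klra12 and Evi2a, at 0.143, 0.195 and 0.196. With only 2 groups this likeness mainly reflects a similar fold change (2.44 to 2.48 on the log2 scale for the first 3 and -6.05 to -5.27 for the others), and the Klra genes are near-identical copies whose counts are uncertain.

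Around these 9 genes, 54 further genes of the retinoid pathway were listed by their textbook roles, and 39 could be tested. Of these 17 rose, 17 fell and 5 did not pass, with a median log2 fold change of -0.05, where the median over all tested genes was -0.01. The shares called, 43.6% in each direction, stand beside 37.5% and 38% of all genes.

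Retinol handling outside the oxidations was led by Rbp4, the secreted carrier of retinol in blood, which fat also makes. Rbp4 had 2468, 1787 and 2261 counts in Prdm16 libraries (66.5 ± 4.31 CPM), against 20, 34 and 40 in puro libraries (0.937 ± 0.275 CPM; SD, n = 3 each). Every Prdm16 library exceeded every puro library many times over. The gene rose by 6.13 ± 0.12 on the log2 scale, 70.2-fold (edgeR adjusted p = 4.31e-12). Of the list of mature adipocyte markers, all 4 tested genes rose, where 37.5% of all tested genes were higher. Cidec rose by 5.20 ± 0.26, Adipoq by 3.05 ± 0.21, Cfd by 2.83 ± 0.54 and Fabp4 by 2.26 ± 0.08 on the log2 scale. Plin1 and Lep were too low to test. Plin1 had 9 counts over the Prdm16 group and 10 over the puro group, and Lep had 5 and 0. Cidec, Adipoq and Cfd passed the filter on low counts through their Prdm16 libraries alone, which left little room for a call as lower. The list summed to 517 to 616 CPM in Prdm16 libraries and 104 to 122 CPM in puro libraries, most of it Fabp4, and its part in the levels of Rbp4, Aldh1a1 and Fabp5 was not tested. The other 4 tested genes of uptake and storage fell, where 38% of all tested genes were lower. Bco2, which cleaves carotenoids, had a log2 fold change of -1.26 ± 0.13 (edgeR adjusted p = 4.92e-06). The retinol receptor Stra6 had -0.62 ± 0.19 and its relative Stra6l -0.88 ± 0.28, with at most 148 counts over a group, and the call of each was lost without some library. Without Prdm16 replicate 1, Stra6 had -0.46, and Stra6l had -0.70 without Prdm16 replicate 3 and -0.61 without puro replicate 3 (edgeR adjusted p = 0.0544 to 0.0676). Transthyretin (Ttr), the partner of Rbp4 in blood, had no count, and Lrat, which esterifies retinol, had 16 counts over the Prdm16 group and 8 over the puro group.

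Among 11 tested further oxidoreductases of retinol and retinal, 4 rose, 5 fell and 2 did not pass. The shares called, 36.4% higher and 45.5% lower, stand beside 37.5% and 38% of all tested genes, so the counts do not set this list apart. Rdh13, a mitochondrial relative of Rdh10, rose by 1.33 ± 0.05 on the log2 scale, and the alcohol dehydrogenases Adh7 and Adh5 by 0.64 ± 0.06 and 0.56 ± 0.04. Adh1, an alcohol dehydrogenase that oxidises retinol, was low in both groups and fell, with 11, 4 and 7 counts in Prdm16 libraries, against 46, 53 and 50 in puro libraries (log2 fold change -2.71 ± 0.26, edgeR adjusted p = 2.17e-06), and passed the filter on low counts through its puro libraries alone. Dhrs9, which also oxidises retinol, was at 21.9 ± 1.63 CPM in Prdm16 libraries and 60.2 ± 1.62 CPM in puro libraries (SD, n = 3 each; log2 fold change -1.46 ± 0.06). Dhrs3, which turns retinal back into retinol, had -0.30 ± 0.06 (edgeR adjusted p = 0.00106).

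Of the 3 enzymes that break retinoic acid down, 2 fell and 1 did not pass, where 38% of all tested genes were lower. Cyp26a1 had 1, 4 and 1 counts in Prdm16 libraries, against 21, 26 and 21 in puro libraries. Cyp26c1 had 2, 1 and 1 counts in Prdm16 libraries, against 26, 24 and 34 in puro libraries. The group sums of 6 and 68 counts put Cyp26a1 11.1-fold lower in Prdm16 libraries, with an exact 95% counting interval of 4.85 to 31.3. Those of 4 and 84 counts put Cyp26c1 20.6-fold lower, with an interval of 7.75 to 77.3, and both intervals cover counting error only. Both genes passed the filter on low counts through their puro libraries alone. The fitted log2 fold changes were -3.39 ± 0.44 for Cyp26a1 and -4.24 ± 0.42 for Cyp26c1 (SE; edgeR adjusted p = 3.39e-05 and 3.33e-06), on a chromosome, 19, whose median was 0.39. Cyp26a1 had -4.39 when Prdm16 replicate 2, the library with 4 counts, was left out. Cyp26b1, the most abundant of the family here, had 1.93, 2.28 and 2.67 CPM in Prdm16 libraries, against 2.81, 2.95 and 2.89 CPM in puro libraries. It did not pass (log2 fold change -0.33 ± 0.14, edgeR adjusted p = 0.0512), and had -0.38 with an adjusted p of 0.0320 when the median of its chromosome, 6, was removed.

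The RXR partners changed little. Rxra had 152 ± 5.25 CPM in Prdm16 libraries and 126 ± 5.97 CPM in puro libraries (log2 fold change 0.28 ± 0.04), Rxrb had 43.9 ± 3.46 CPM in Prdm16 libraries and 52.8 ± 2.19 CPM in puro libraries (-0.26 ± 0.06; SD, n = 3 each), and Rxrg had no count. Of 8 coregulators of nuclear receptors 6 rose and 2 fell, where 37.5% of all tested genes were higher and 38% lower. None of their log2 fold changes exceeded 0.62 in size, reached by the coactivator Ncoa1. The acetyltransferase gene Ep300, on chromosome 15 like Rarg, had -0.28 ± 0.04, and 0.10 with an adjusted p of 0.0520 when the chromosome median was removed. Fabp5, a fatty acid binding protein that can also carry retinoic acid to the receptor PPARδ, rose by 1.63 ± 0.08 on the log2 scale, with 128 ± 8.42 CPM in Prdm16 libraries and 41.5 ± 4.68 CPM in puro libraries (SD, n = 3 each). Ppard, which encodes that receptor, had 0.15 ± 0.05 (edgeR adjusted p = 0.0280), and its call was lost without Prdm16 replicate 1 (0.09), puro replicate 1 (0.13) or puro replicate 2 (0.14).

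Of 8 tested other genes that retinoic acid is known to induce, 3 rose, 3 fell and 2 did not pass. The shares called, 37.5% in each direction, were near those of all tested genes (37.5% higher and 38% lower), so the split does not set this list apart. The homeobox gene Hoxa4 rose by 1.27 ± 0.09 on the log2 scale, with 10.4 ± 0.224 CPM in Prdm16 libraries and 4.30 ± 0.404 CPM in puro libraries (SD, n = 3 each), whereas Hoxb4 did not pass (-0.03 ± 0.09). Rarres2, which encodes the adipokine chemerin, and the transglutaminase Tgm2 had log2 fold changes of -1.0 ± 0.11 and -0.44 ± 0.06. Cdx1, a homeobox gene and classical target in the embryo, was not tested, with 1 count over the Prdm16 group and 31 over the puro group, 30.4-fold lower with an exact 95% counting interval of 5.07 to 1239.

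**Figure D4:**
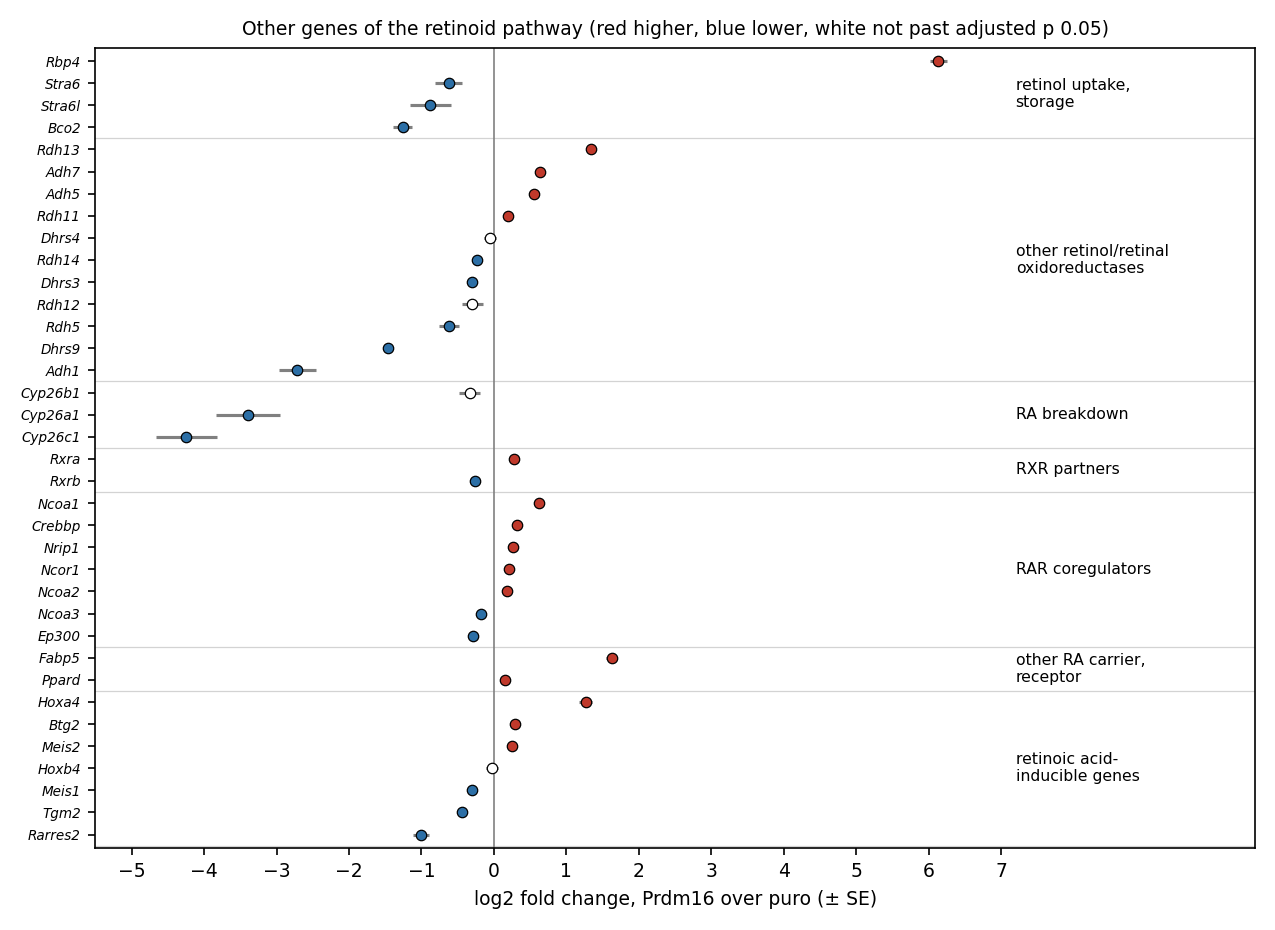
Log2 fold change, Prdm16 over puro, with its SE for 36 of the 39 further tested genes of the retinoid pathway, grouped by role and ordered by fold change within a group; red points passed as higher, blue as lower and white did not pass an adjusted p of 0.05. Rbp4 stands apart at 6.13, and Cyp26c1 and Cyp26a1 are lowest at -4.24 and -3.39.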

How the data were processed

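The 6 libraries are 3 Prdm16 and 3 puro libraries, grouped by their labels. The authors deposited whole-number counts per gene symbol, with no normalization; the submitters' processing notes name STAR, featureCounts, Subread and build mm9 without versions or roles. Reads of paralogs and overlapping genes may therefore be mixed.

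The analysis used edgeR 4.0.16 under R 4.3.3. Of the genes, 13805 passed filterByExpr; the 10392 others had 0.0297% of all counts. This was followed by TMM scaling, a two-sided quasi-likelihood test and Benjamini-Hochberg adjustment. SE came from the fold change and F statistic. The fit was tested on simulated data in which few genes changed and no chromosome shifted. The real libraries differ in both respects, so that test does not show how the fit performs on them. Exact binomial intervals (95%) of ratios of summed counts cover counting error only. Chromosomes and exon and coding lengths came from GENCODE M21 (GRCm38), another build than mm9, by symbol, and promoter sequences from RefSeq, GRCm38.p6.

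The members, gene lists and tests were chosen with earlier results of these data known; the motifs were chosen after the sequences were read. All 9 members are named, with genes of the pathway lists that passed or were extreme, and the 3 genes nearest to the largest called rise and fall; some pathway genes are counted but not reported here by name. Alternatives used DESeq2 1.42.0, limma-voom (limma 3.58.1), other scalings and filters, a replicate block, chromosome medians and each library left out.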

Additional observations from a re-analysis of the deposited data

How the results depend on the processing

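Rdh10, Aldh1a1, Crabp2, Rara and Rarb kept their direction and their call, as higher, under all 16 alternatives, and Aldh1a2 did so as lower. Rarg had a log2 fold change of 0.16 with chromosome medians removed, the opposite direction, which left 1 of the 9 members called lower there; the cause of the chromosome-wide shifts was not tested. With 1 library left out, log2 fold changes ranged from 2.16 to 2.36 for Aldh1a1, -6.35 to -5.29 for Aldh1a2, 0.995 to 1.05 for Rdh10, 1.09 to 1.32 for Crabp2, 0.47 to 0.65 for Rara, 2.34 to 2.53 for Rarb and -0.25 to -0.18 for Rarg. Of 34 calls among the other pathway genes, 31 kept their direction with chromosome medians removed, 3 were lost (Ep300 and Ppard among them) and 2 genes (Dhrs4 and Cyp26b1) were newly called.

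The labels state no pairing of the libraries. Deviations from the group means correlated at -0.16, 0.10 and -0.07 for equal replicate numbers, and at -0.19 to 0.25 for unequal ones. With 3 libraries per group these values depend on each other, so they cannot decide whether libraries were paired. A replicate block left 5 members called higher and 2 called lower. Depth limits Aldh1a3 and Crabp1, which DESeq2 gave adjusted p of 0.391 and 0.177.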

Other observations

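Cyp26a1, Cyp26c1 and Rbp4 lie close together on chromosome 19, and the protein-coding genes around them in the RefSeq order did not move together; they were looked up after their values were seen. In that order Exoc6, a vesicle-tethering subunit, had a log2 fold change of 2.23, Cyp26c1 -4.24, Cyp26a1 -3.39, the membrane-repair gene Myof 0.30, the midbody gene Cep55 1.44 and, after Ffar4, Rbp4 6.13 (edgeR adjusted p at most 5.01e-05 for each). Ffar4, a receptor of long-chain fatty acids and the immediate neighbour of Rbp4, had 112, 89 and 95 counts in Prdm16 libraries, against 0, 0 and 1 in puro libraries, 302-fold higher (exact 95% counting interval 53.7 to 11960). Ffar4 passed the filter on low counts through its Prdm16 libraries alone. The falling pair of Cyp26 genes thus lay between genes that rose. Rising neighbours are common there, as 69.0% of the tested genes of chromosome 19 were higher in Prdm16 libraries and 14.6% were lower. Pde6c, next after Rbp4, had no count.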
